A study of Homo sapiens with 4 samples.

Results

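HMGB1, HMGB2 and HMGB3 are 3 of the 19974 protein-coding genes of the reference table, chosen by name as one small family of chromatin proteins. For each gene, every peak over the gene or within 50 kb of either end was taken (GRCh38), in each of 4 libraries. Their accessibility was measured by single-nucleus ATAC-seq, in which a transposase inserts adapters into open chromatin, so that counts in a peak reflect how open that stretch of DNA was. The nuclei came from Panc1, an established human pancreatic ductal adenocarcinoma line, recovered from mice that carried it as a transplant. Mice 11 and 35 had received inflachromene (called ICM in the sample titles), and mice 12 and 31 had received its carrier. All 4 mice carried the same cell line, with no further allele or agent named; their dose, duration, host strain and age are not known here. Each library is 1 numbered mouse, so p-values rest on 2 mice against 2. The files hold human coordinates only, and any nuclei of the host were not told apart here.

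HMGB proteins are small, abundant proteins of the nucleus. Their paired HMG boxes bind DNA in the minor groove with little regard to sequence and bend it, which helps nucleosomes and transcription factors rearrange. HMGB1 is made in nearly every cell and, once released, acts as an alarm signal through receptors such as RAGE and TLR4. HMGB2 is highest in dividing cells, and HMGB3 is known from stem and progenitor cells and from several carcinomas. Inflachromene is known for binding HMGB1 and HMGB2 and for holding back their release from cells; HMGB3 is included as their closest relative, and its binding is not described here. Accessibility at a start site is not a measure of RNA or protein.

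The starts on which the results turn differ in the bases before them. The 250 bases upstream of 3 starts follow, from RefSeq's promoter table (GRCh38.p14), read 5′ to 3′ on the strand of the gene, with capitals marking CCAAT, the box bound by the trimeric factor NF-Y. They are shown because the start inside HMGB1 and the first start of HMGB3 each hold 3 such boxes, while the second start of HMGB3, at which a peak was called in the Inflachromene libraries alone, holds none. The outer and the inner downstream start of HMGB1 are described in words, and the sequence at HMGB2 is not shown. Both of these HMGB1 starts have a peak in every library, although the outer start holds 0 such boxes and the inner downstream start 1.

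HMGB1 inner upstream start (chr13:30465937-30466186, minus strand): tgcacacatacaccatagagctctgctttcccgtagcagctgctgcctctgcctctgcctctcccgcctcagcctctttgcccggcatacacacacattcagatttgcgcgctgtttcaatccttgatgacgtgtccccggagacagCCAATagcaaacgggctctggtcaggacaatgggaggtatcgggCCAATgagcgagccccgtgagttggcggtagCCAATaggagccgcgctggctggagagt
HMGB3 first start (chrX:150983085-150983334, plus strand): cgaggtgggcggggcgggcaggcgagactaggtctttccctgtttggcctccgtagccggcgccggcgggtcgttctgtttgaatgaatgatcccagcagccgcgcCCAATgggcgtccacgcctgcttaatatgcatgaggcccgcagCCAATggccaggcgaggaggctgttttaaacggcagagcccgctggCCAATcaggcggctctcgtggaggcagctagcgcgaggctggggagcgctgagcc
HMGB3 second start (chrX:150984141-150984390, plus strand): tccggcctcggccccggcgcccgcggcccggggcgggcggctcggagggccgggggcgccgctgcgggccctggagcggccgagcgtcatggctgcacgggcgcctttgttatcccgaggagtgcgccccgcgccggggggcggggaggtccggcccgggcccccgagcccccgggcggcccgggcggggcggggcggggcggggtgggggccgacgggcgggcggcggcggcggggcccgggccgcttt

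In the HMGB1 sequence the boxes begin 103, 59 and 28 bases before the start, all as CCAAT. In the HMGB3 first sequence they begin 144, 101 and 55 bases before it. CCAAT on either strand occurred in 32.0% of the 34961 promoters of the same length, and 3 or more in 2.93%. The inner downstream start of HMGB1 had 1 box and the outer start had 0. GGGCGG, the letters of a GC box, was searched on both strands too. It occurred 9 times, overlaps included, before the inner downstream start and 10 times before the HMGB3 second start, against 0 before the inner upstream start and 2 each before the outer and the HMGB3 first start. In all, 42.7% of promoters held GGGCGG and 13.9% held 3 or more. The GC content was 58.4% before the inner upstream start, the same as the median promoter, and 66.0% before the HMGB3 first start. It was 86.0% before the inner downstream start and 87.6% before the HMGB3 second start. TATAAA, found in 10.7% of promoters, was in none of the 5 windows. In all, 6 motifs were searched. TTCCCGC (5.53% of promoters) was in none of the windows either. TTTGAA (13.3%) was found before the HMGB3 first start and the inner downstream start, and CCGGAAG (8.52%) before the outer start of HMGB1. These matches describe letters and not bound sites.

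The 4 libraries held between 27088391 and 39947056 counts in 2039 to 5186 barcodes, and the barcodes of 10000 or more counts, called deep here, held 88.0% to 94.6% of them. Deep barcodes numbered 1137 and 1726 in Inflachromene 11 and 35, against 1768 and 684 in Carrier 12 and 31, with median counts of 20298 and 21380 against 17097.5 and 40103. Of the preset Panc1 and carcinoma markers, 6 of 7 had a peak at their start in every library (KRT7 had none). So did 2 of 4 fibroblast markers (COL1A1 and PDGFRB, while LUM and DCN had none) and 2 of 4 immune markers (CD3E and CD68, while PTPRC had one in 3 libraries and MS4A1 in none). No endothelial, acinar or endocrine marker had one. Libraries shared barcode sequences: 1209 between Inflachromene 11 and Carrier 12 and 357 between Carrier 12 and Carrier 31. Of these, 1104 were deep in Carrier 12 alone and 346 were deep in Carrier 31 alone. A further 155 were shared by Inflachromene 11 and Carrier 31, and the other pairs shared 25 to 29. The shallower copy of each shared sequence held at most 0.988% of a library's counts, but all shared barcodes together held 3.26% and 1.34% in Inflachromene 11 and 35, against 58.5% and 61.8% in Carrier 12 and 31. The fold changes and shares at the 5 starts are therefore also given without any shared barcode. That removal takes 1117 and 426 deep barcodes from Carrier 12 and 31, against 23 and 23 from Inflachromene 11 and 35. Barcodes under 10000 counts then hold a larger part of the Carrier counts than before. Values over all barcodes without shared ones thus also differ in depth between the groups.

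Overlapping peaks of the libraries were merged, and the merged regions found in every library are called consensus regions. Only these can be tested, since a library without a peak in a region has no count there rather than 0. The 3 windows held 40 merged regions, of which 14 were consensus regions. HMGB1 (gene ID 3146) spans 160894 bp on chromosome 13 (30456704 to 30617597) and its window held 21 merged regions, 9 of them consensus. HMGB2 (gene ID 3148) spans 2983 bp on chromosome 4 (173331376 to 173334358), with 9 merged regions and 4 consensus. HMGB3 (gene ID 3149) spans 10265 bp on chromosome X (150980507 to 150990771), with 10 merged regions and 1 consensus. The HMGB1 window held 13 and 17 peaks in Inflachromene 11 and 35, against 15 and 13 in Carrier 12 and 31. The HMGB2 window held 7 and 7 with Inflachromene, against 7 and 5 with Carrier, and the HMGB3 window 6 and 6 against 5 and 4.

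**Figure D1:**
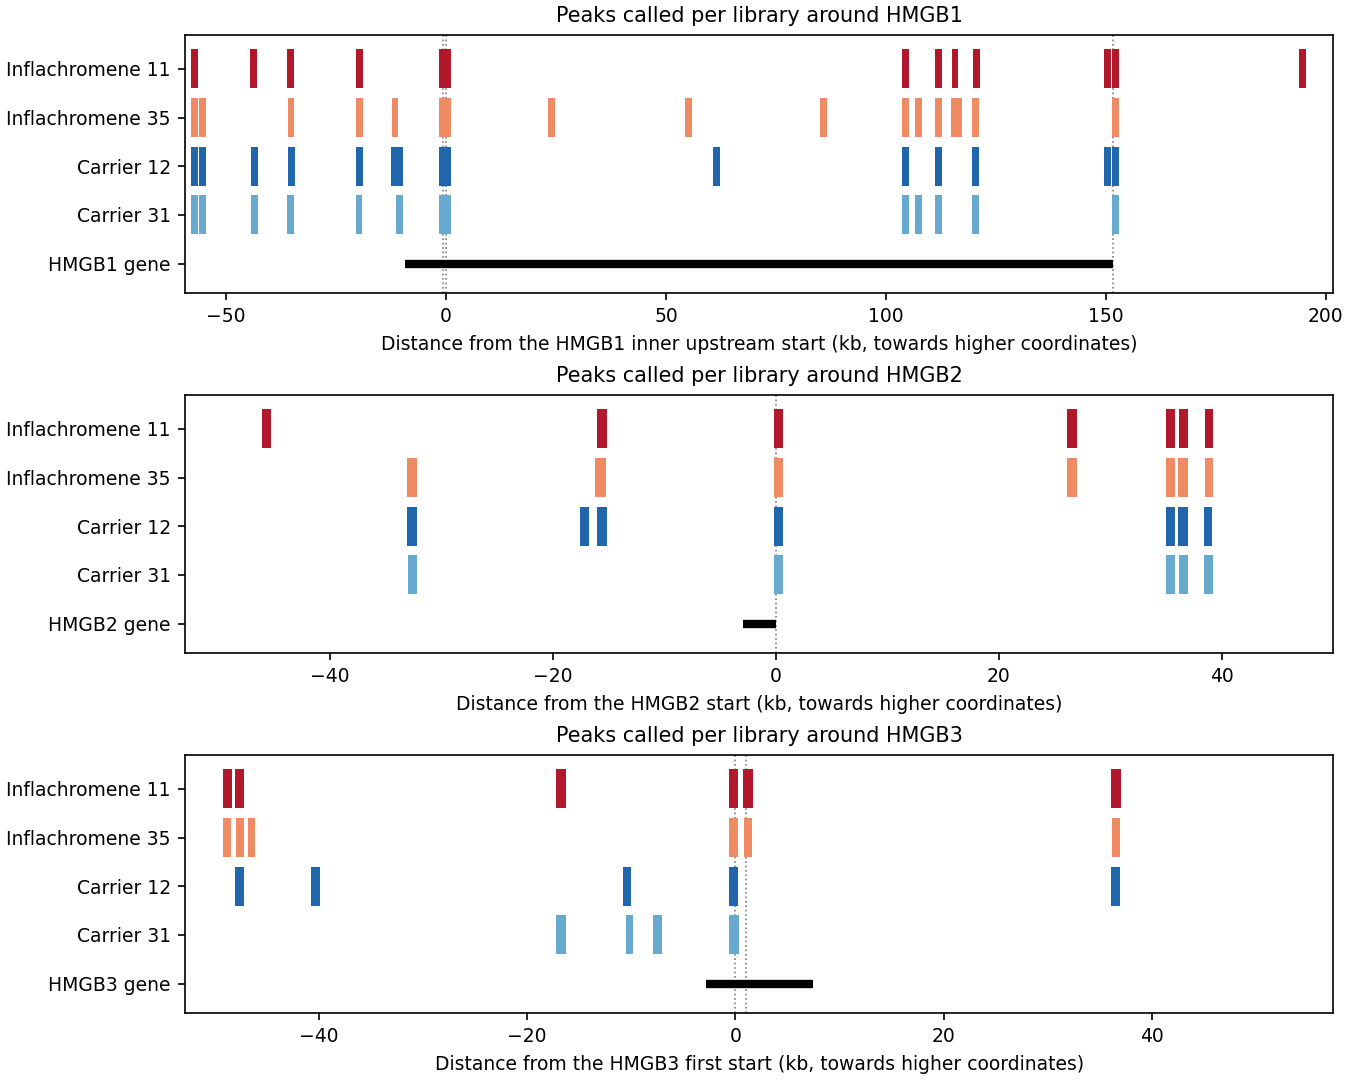
Peaks called in each library (coloured bars, 1 row per library) around HMGB1, HMGB2 and HMGB3, against the distance in kb from a start of each gene; black bars are the genes and dotted lines their starts. The starts are covered by a peak in every row, except the HMGB3 second start, which has a peak in the 2 Inflachromene rows and in neither Carrier row.

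HMGB1 had 3 annotated starts, all on the minus strand, and each lay in a consensus region. Its outer start (position 30617597) lay in the region from 30617237 to 30618136, which also overlaps USPL1, the neighbour read in the other direction, so its counts cannot be assigned to either gene. A pair of starts lay inside the gene, close to its far end: the inner upstream start at 30465936, in the region 30465584 to 30466473, and the inner downstream start at 30465240, in the region 30464284 to 30465452. In every library the peak at the inner upstream start covered the whole of the 300 bases around the start, with its centre at -80.5 and -109 bases from the start in Inflachromene 11 and 35, against -109.5 and -99.5 in Carrier 12 and 31 (negative values lie upstream). At the inner downstream start the peak centres lay 334 to 473.5 bases into the gene and the peak covered 59 and 262 of the 300 bases with Inflachromene, against 76 and 77 with Carrier. The region is thus mostly downstream of that start. HMGB2 has its peak at its upper outer end, which is taken as its start, since the tables used give no strand for it. The region runs from 173334179 to 173335022, with peak centres at -236 and -244.5 bases from that end in Inflachromene 11 and 35, against -245.5 and -244 in Carrier 12 and 31. The HMGB3 first start (150983335) lay in the region 150982744 to 150983659, and its peaks were centred at -144.5 to -121.5 bases from the start.

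The outer start of HMGB1 was the most accessible of the 5 start regions and the inner downstream start the least. Levels are in CPM, the counts of a region scaled to a common library total over consensus regions with TMM factors, and between regions they are compared per kb of peak width. On that scale the means over the 4 libraries were 83.6 at the HMGB1 outer start, 75.5 at HMGB2, 57.3 at the HMGB1 inner upstream start, 50.3 at the HMGB3 first start and 28.3 at the HMGB1 inner downstream start. This order held in each of the 4 libraries. Among neighbours in the order, the outer start (76.9 to 90.0) and HMGB2 (64.5 to 87.7) overlapped, as did the inner upstream start (51.1 to 64.4) and the HMGB3 first start (44.6 to 60.7). The inner downstream start (25.3 to 31.2) lay below the others in all libraries. The 5 regions stood at the 96.9, 95.7, 91.2, 88.7 and 75.8 percentiles of all consensus regions in the order of the means. Among the 11324 regions at gene starts they stood at 88.5, 83.9, 68.3, 60.3 and 30.2. The median level was 12.8 CPM per kb over all consensus regions and 42.6 at gene starts. In deep barcodes alone the mean of the HMGB3 first start (48.1) exceeded that of the HMGB1 inner upstream start (46.8). That order was Inflachromene 11's (56.9 against 46.3), while in Inflachromene 35, Carrier 12 and Carrier 31 the HMGB3 first start had 44.3, 44.6 and 46.8, below or level with the 46.3, 44.6 and 49.9 of the inner upstream start.

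None of the 5 starts passed the test between Inflachromene and Carrier, and at 4 of them the groups overlapped. The edgeR quasi-likelihood test, fitted over all 50771 consensus regions, called 0 of the 14 regions in the HMGB windows at an adjusted p under 0.05, and 0 at an unadjusted p under 0.05. Over all consensus regions it called 0 (0.0%), with 2274 (4.48%) at an unadjusted p under 0.05, and DESeq2 called 28 of the 42896 it tested (0.0653%), with 0 of the 14 among them. With 0.0% called over the whole genome, 0 of 14 is the background.

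HMGB1's inner upstream start had 53.8 and 44.2 CPM in Inflachromene 11 and 35, against 43.5 and 55.4 CPM in Carrier 12 and 31. Each group held a high and a low library, and the groups overlapped fully. The means were 49.0 ± 6.79 CPM with Inflachromene and 49.4 ± 8.38 CPM with Carrier (SD, n = 2 each). The log2 fold change from edgeR was -0.01, with a standard error of 0.17, a 95% interval of -0.40 to 0.37 and an adjusted p of 1.00. Without any shared barcode it was -0.36 (standard error 0.19), at an unadjusted edgeR p of 0.0824, and in deep barcodes without them it was -0.012. The HMGB1 outer start had 77.9 and 65.8 CPM with Inflachromene, against 66.9 and 77.8 CPM with Carrier. Again Inflachromene 11 and Carrier 31 were the high libraries. The edgeR estimate was -0.01 on the log2 scale (95% interval -0.37 to 0.35, standard error 0.16, adjusted p 1.00), and -0.040 without any shared barcode.

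The inner downstream start of HMGB1 was the only one of the 14 regions whose groups did not overlap, which 31.5% of all consensus regions did. It had 30.2 and 29.2 CPM in Inflachromene 11 and 35, against 23.1 and 27.5 CPM in Carrier 12 and 31. Both Inflachromene libraries thus lay above both Carrier libraries. The means were 29.7 ± 0.707 CPM with Inflachromene and 25.3 ± 3.07 CPM with Carrier (SD, n = 2 each). The edgeR log2 fold change was 0.23, its 95% interval -0.14 to 0.60 and its standard error 0.17, at an unadjusted p of 0.199 and an adjusted p of 1.00. In deep barcodes it had 24.4 and 27.3 CPM with Inflachromene, against 22.2 and 24.5 CPM with Carrier, and the groups overlapped. Without any shared barcode the log2 fold change was -0.0046, and in deep barcodes without them it was 0.059 (standard error 0.20).

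HMGB2 had 72.9 and 57.6 CPM in Inflachromene 11 and 35, against 54.0 and 68.3 CPM in Carrier 12 and 31. The Inflachromene libraries were both the highest and the second lowest of the 4, so the groups overlapped. Mean levels were 65.2 ± 10.8 CPM with Inflachromene and 61.1 ± 10.0 CPM with Carrier (SD, n = 2 each), and edgeR put the log2 fold change at 0.09, between -0.31 and 0.49 at 95% (standard error 0.18, adjusted p 1.00). It was -0.085 without Inflachromene 11, -0.061 without Carrier 12 and -0.18 without any shared barcode. In deep barcodes without shared ones it was -0.041.

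HMGB3's first start had 54.2 and 39.2 CPM in Inflachromene 11 and 35, against 40.7 and 44.7 CPM in Carrier 12 and 31. The Inflachromene libraries held both the highest and the lowest value. Means were 46.7 ± 10.6 CPM with Inflachromene and 42.7 ± 2.83 CPM with Carrier (SD, n = 2 each). By edgeR the log2 fold change was 0.13, with a 95% interval of -0.28 to 0.53, a standard error of 0.18 and an adjusted p of 1.00. Its sign rested on Inflachromene 11, without which it was -0.12, and it was -0.045 without any shared barcode. In deep barcodes without shared ones it was 0.065 (standard error 0.19).

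**Figure D2:**
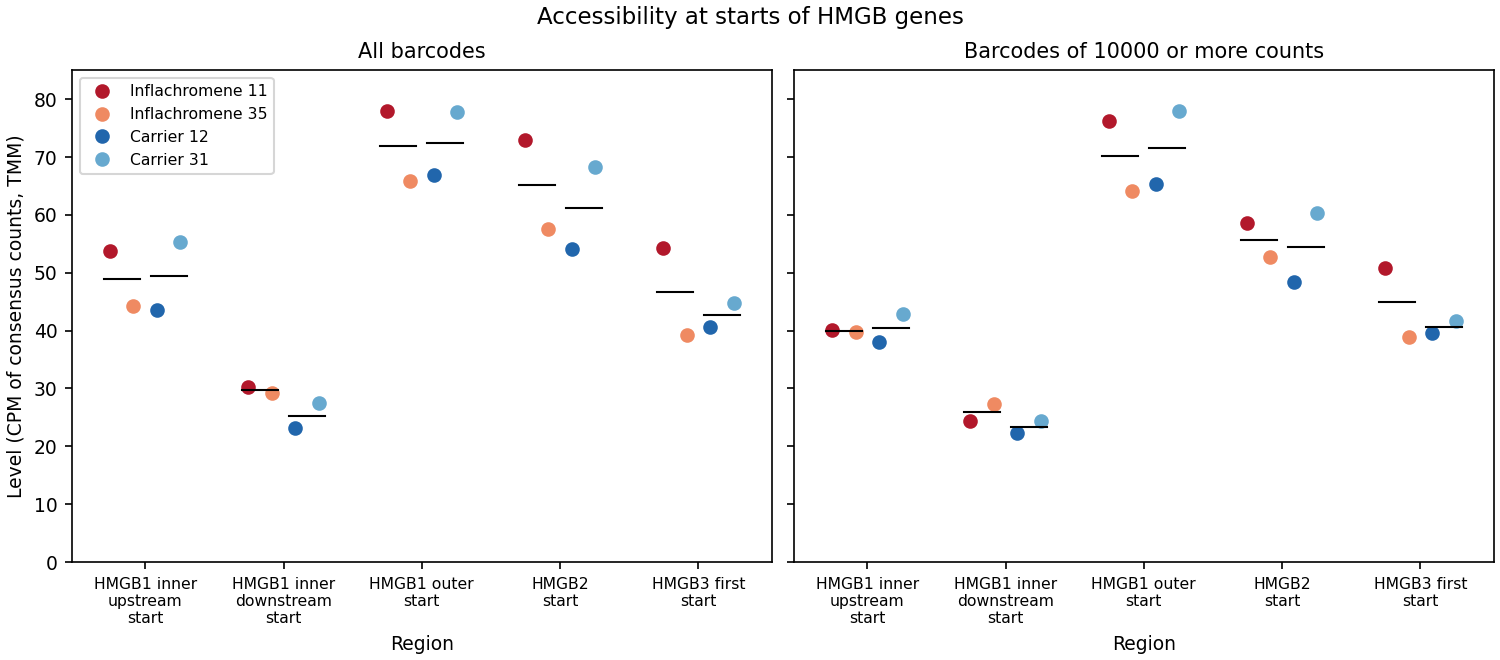
Level in CPM of consensus counts at the 5 start regions in all barcodes (left) and in barcodes of 10000 or more counts (right); each point is 1 library, with Inflachromene libraries left of Carrier libraries, and lines are group means. In all barcodes Inflachromene 11 and Carrier 31 are the high libraries at 4 of the 5 starts, and the groups are apart at the HMGB1 inner downstream start alone (30.2 and 29.2 CPM with Inflachromene against 23.1 and 27.5 CPM with Carrier).

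Deep barcodes gave the same picture, with smaller differences between libraries at the inner HMGB1 and HMGB2 starts. The inner upstream start had 40.1 and 39.7 CPM in deep barcodes of Inflachromene 11 and 35, against 38.0 and 42.9 CPM in Carrier 12 and 31. HMGB2 had 58.6 and 52.7 CPM with Inflachromene, against 48.5 and 60.3 CPM with Carrier. The log2 fold changes in deep barcodes were -0.02 at the inner upstream start, 0.15 at the inner downstream start, -0.03 at the outer start, 0.03 at HMGB2 and 0.14 at the HMGB3 first start, with standard errors of 0.15 to 0.17. All 5 groups of values overlapped there, against 31.7% of regions whose groups did not. In deep barcodes edgeR called 0 of 50765 regions (0.0%), with 2378 (4.68%) at an unadjusted p under 0.05, and DESeq2 called 37 of 44865 (0.0825%), none of them in the HMGB windows.

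**Figure D3:**
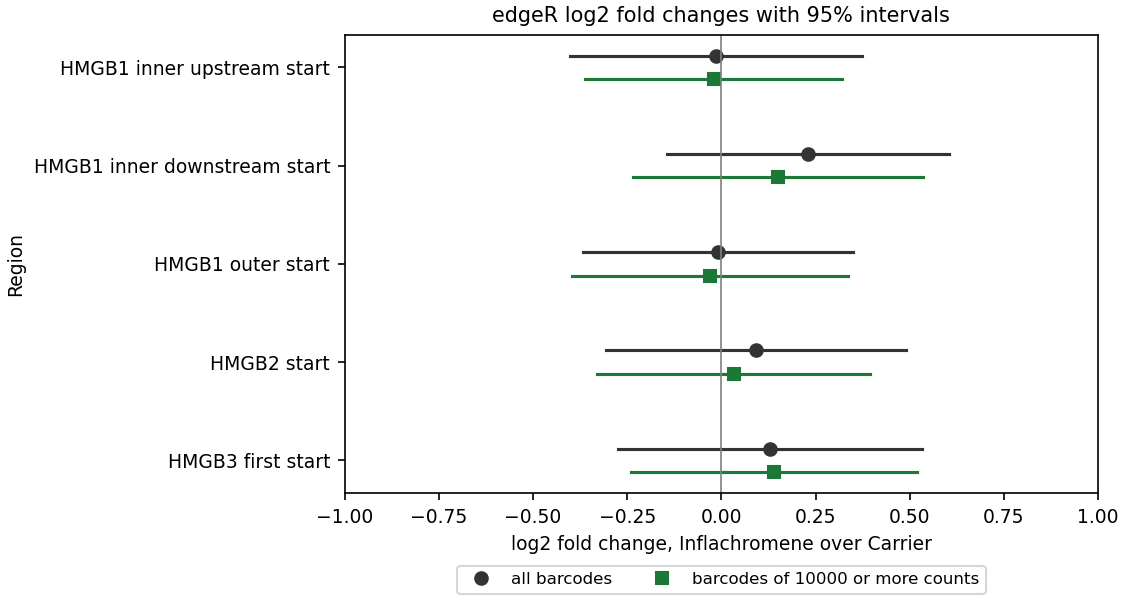
log2 fold change of Inflachromene over Carrier at the 5 start regions from edgeR, with 95% intervals, in all barcodes (dark circles) and in barcodes of 10000 or more counts (green squares). All 10 intervals include 0, and in all barcodes they lie between -0.40 and 0.60.

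The 9 other consensus regions of the windows had log2 fold changes between -0.26 and 0.19, 6 above and 3 below 0. The one with the highest level per kb was the start of SAP30, a subunit of the SIN3 histone deacetylase complex, 36092 bp from HMGB2 (173370450 to 173371323). That region also holds a start of a long non-coding RNA, so its counts cannot be assigned to SAP30 alone. It had 49.9 and 44.1 CPM in Inflachromene 11 and 35, against 41.2 and 46.2 CPM in Carrier 12 and 31, and a log2 fold change by edgeR of 0.10 ± 0.15 (standard error). Within the HMGB1 gene, 3 consensus regions lay away from any annotated start, between 30569617 and 30586531, with mean levels in the lower range of the windows. The highest of them had 11.3 and 16.9 CPM with Inflachromene, against 15.9 and 13.9 CPM with Carrier. The neighbours of HMGB1 are UBE2L5 and USPL1 and those of HMGB2 are GALNT7 and SAP30, while the HMGB3 window held no other protein-coding gene. UBE2L5 lay in a region (30421504 to 30422537) with 840 counts in Inflachromene 11 and no peak in Inflachromene 35, against 975 and 978 counts in Carrier 12 and 31, so it was not tested. In the 10 Mb window that holds each gene, not centred on it, the other consensus regions had a log2 ratio of Inflachromene to Carrier. It was 0.06 for HMGB1 on chromosome 13, 0.08 for HMGB2 and -0.04 for HMGB3.

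HMGB3 had a further start, inside the gene as the first start is, with a peak in both Inflachromene libraries and in neither Carrier library. The HMGB3 second start (150984391) lay in a merged region from 150984041 to 150985006, with 278 counts in Inflachromene 11 and 188 in Inflachromene 35. Those are 10.3 and 4.71 CPM of all counts of the library. The first start had 1282 and 1302 counts in the same libraries. The Carrier libraries have no value here, since a matrix holds counts in called peaks alone; 5% of called regions in Carrier 12 and 31 had at most 77 and 63 counts. In deep barcodes, 116 of 1137 in Inflachromene 11 (10.2%) and 90 of 1726 in Inflachromene 35 (5.21%) held a count in the region. Of all 128195 merged regions, 4666 (3.64%) had a peak in both Inflachromene libraries alone and 2046 (1.6%) in both Carrier libraries alone. Among the 12981 merged regions over an annotated start, 212 (1.63%) were of the first kind and 52 (0.401%) of the second. Inflachromene 35, the library with the most counts, also had the most peaks, 96240 against 75717 to 78639 in the others. In the windows of the 3 genes, 4 of 40 merged regions had peaks in the Inflachromene libraries alone and 2 in the Carrier libraries alone. Whether the second start of HMGB3 differs in level between the groups was not tested.

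Counts summed over a library cannot tell a smaller share of open nuclei from fewer insertions per open nucleus, so the share of deep barcodes with a count was taken after thinning each barcode to 10000 counts. The share at HMGB2 was 33.6% in Inflachromene 11 (95% exact Clopper-Pearson interval 30.9% to 36.4%) and 29.5% in Inflachromene 35 (27.4% to 31.8%), against 27.2% in Carrier 12 (25.1% to 29.3%) and 36.5% in Carrier 31 (32.9% to 40.3%). Carrier held both the highest and the lowest share. The HMGB1 inner upstream start had a count in 22.2% and 22.7% of deep barcodes with Inflachromene, against 22.1% and 30.4% with Carrier. Carrier 31 stood apart there, but not without shared barcodes, when it had 25.6% (20.4% to 31.4%) in the 258 deep barcodes that were left. The HMGB1 outer start had 40.5% and 33.9% with Inflachromene, against 33.9% and 46.5% with Carrier, and the HMGB3 first start 27.5% and 20.9%, against 21.4% and 27.6%. Without shared barcodes Carrier 31 rose at the HMGB3 first start, to 34.1% (28.3% to 40.2%). The others then had 27.4% and 20.8% with Inflachromene and 20.0% in Carrier 12. The inner downstream start had the lowest shares, 14.6% and 15.9% with Inflachromene against 13.3% and 15.1% with Carrier. The differences of the means, Inflachromene minus Carrier, were -3.80 percentage points at the inner upstream start, 1.09 at the inner downstream start, -2.99 at the outer start, -0.305 at HMGB2 and -0.313 at the HMGB3 first start. Two-sided exact permutation tests over libraries gave p of 0.667 or 1.00 for the 5 regions, in a design whose smallest possible p is 0.333. Without any shared barcode the differences were -1.77, 0.469, -1.13, -0.966 and -2.96 percentage points in the same order. Intervals cover counting error only.

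Before thinning, the shares were highest in the deepest library, and thinning draws single counts although most counts come in pairs from the ends of a fragment. Unthinned, 30.4% and 31.5% of deep barcodes had a count at the inner upstream start with Inflachromene, against 27.4% and 54.7% with Carrier. The median gene-start region had a count in 31.9% and 28.3% of deep barcodes with Inflachromene, against 25.1% and 49.1% with Carrier, highest in the deepest library, Carrier 31, and lowest in the shallowest, Carrier 12. When counts were halved and barcodes thinned to 5000, the inner upstream start had 15.1% and 13.8% with Inflachromene against 16.1% and 15.9% with Carrier, and Carrier 31 no longer stood apart. Both Inflachromene libraries then lay below both Carrier libraries (permutation p = 0.333, the smallest possible). Barcodes of 5000 or more counts thinned to 5000 gave 13.9% and 13.1% against 15.4% and 17.0% there, the groups again apart (permutation p = 0.333). The inner downstream start then had 9.09% and 10.4% against 8.35% and 9.02%, also apart (permutation p = 0.333). The share of all regions apart in this way was not taken. With halved counts HMGB2 had 25.0% and 18.0% with Inflachromene against 19.7% and 22.6% with Carrier. In the thinned barcodes most positive nuclei had 1 or 2 counts at a start: at HMGB2 they were 29.8% and 27.1% of deep barcodes with Inflachromene, against 24.7% and 32.5% with Carrier. More than 4 counts were found in at most 0.440% of deep barcodes of any library at HMGB2. Counts at both the HMGB1 inner upstream and the HMGB2 start were found in 8.09% and 7.01% of deep barcodes with Inflachromene, against 6.67% and 13.0% with Carrier. The joint share lay above the product of the single shares in all 4 libraries, by most in Carrier 31, where the product was 11.1%. Counts at all 3 starts (HMGB1 inner upstream, HMGB2 and HMGB3 first) were found in 2.11% and 1.80% of deep barcodes with Inflachromene, above the products of 2.05% and 1.40%, and in 1.53% and 2.34% with Carrier, where the products were 1.28% and 3.07%. In Carrier 31 this joint share thus lay below the product. The joint shares of all 3 starts rest on 24 and 31 barcodes with Inflachromene, against 27 and 16 with Carrier. Their distance from the products was not tested. None of these 3 starts had a count in 37.8% and 43.5% of deep barcodes with Inflachromene, against 45.3% and 33.8% with Carrier.

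**Figure D4:**
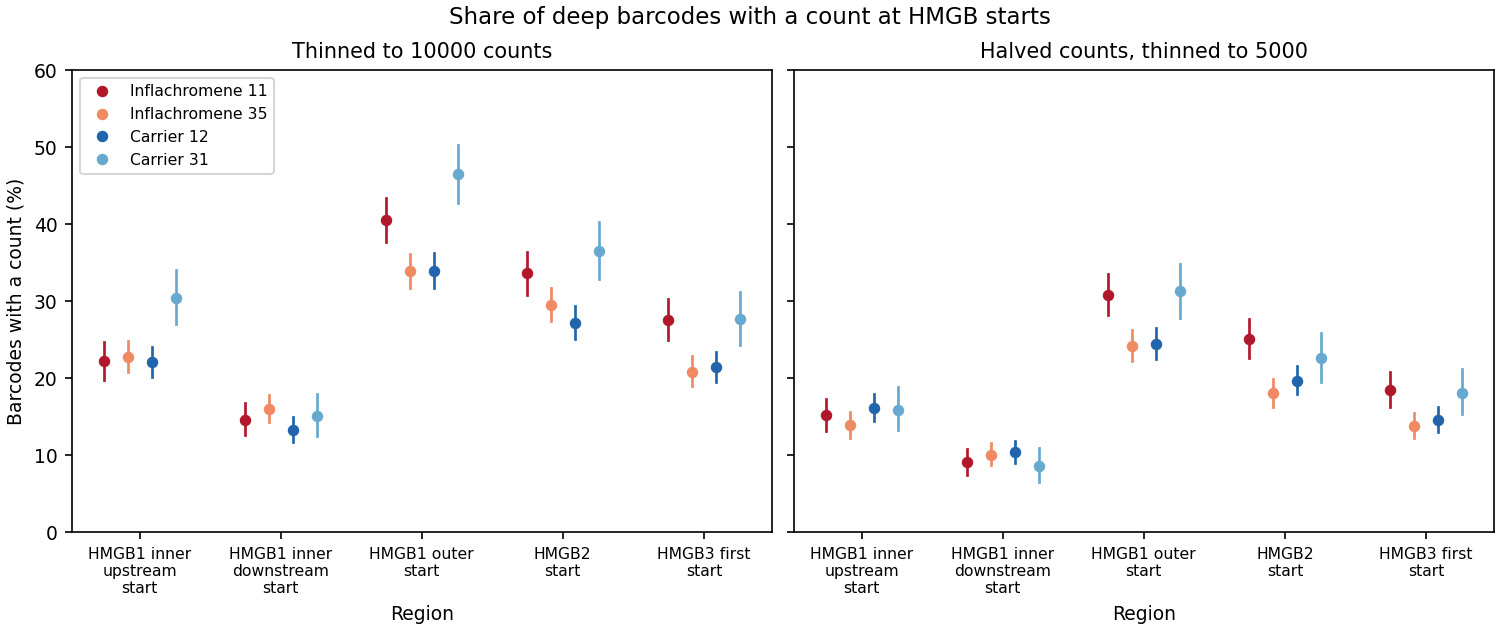
Share of deep barcodes with at least 1 count at the 5 start regions, thinned to 10000 counts (left) and with halved counts thinned to 5000 (right); points are libraries, Inflachromene left of Carrier, and bars are exact 95% Clopper-Pearson intervals over barcodes. Carrier 31 is the highest library at the HMGB1 inner upstream start on the left (30.4%) and lies among the others on the right (15.9%).

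The starts also differed in their level in barcodes of few counts, called shallow here. HMGB1's inner upstream start had 153 and 110 CPM in barcodes under 10000 counts of Inflachromene 11 and 35, against 106 and 276 CPM in those of Carrier 12 and 31. In deep barcodes it had 39.2 and 39.6 CPM with Inflachromene, against 39.2 and 42.7 CPM with Carrier (no TMM scaling in these values). The level was thus 3.90 and 2.78 times as high in shallow as in deep barcodes with Inflachromene and 2.71 and 6.47 times with Carrier. The median gene-start region had ratios of 0.922 and 1.01 with Inflachromene and 1.01 and 0.919 with Carrier, and HMGB1's ratio stood between the 99.2 and 99.5 percentiles of the 11324 regions in the 4 libraries. HMGB2 had ratios of 3.07 and 2.47 with Inflachromene and 2.37 and 3.47 with Carrier, at the 97.5 to 99.0 percentiles. The inner downstream start of HMGB1 had ratios of 3.01 and 2.06 with Inflachromene and 1.48 and 3.32 with Carrier. The HMGB3 first start had 1.56 and 1.13 with Inflachromene and 1.34 and 2.35 with Carrier. The HMGB1 outer start had 1.17 and 1.42 with Inflachromene and 1.29 and 0.970 with Carrier. The excess was present in both groups, and it was found at the inner but hardly at the outer start of the same gene.

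Under 2000 counts per barcode the inner upstream start reached 298 and 245 CPM with Inflachromene, against 216 and 232 CPM with Carrier. HMGB2 reached 291 and 253 CPM with Inflachromene, against 216 and 212 CPM with Carrier. From 2000 to under 10000 counts the inner upstream start had 70.3 and 39.8 CPM with Inflachromene, against 45.9 and 298 CPM with Carrier, so that Carrier 31 stood far above the other 3 libraries there. HMGB2 had 110 and 66.1 CPM in the same class with Inflachromene, against 64.8 and 206 CPM with Carrier. When all shared barcodes were left out, the inner upstream start still had 160 and 110 CPM in shallow barcodes with Inflachromene, against 112 and 277 CPM with Carrier. Shallow barcodes held a small part of all counts, the remainder of the 88.0% and 93.5% held by deep barcodes with Inflachromene, against 91.5% and 94.6% with Carrier. The share of counts at gene starts was alike in shallow and deep barcodes, at 46.4% and 46.4% in Inflachromene 11, 41.1% and 39.0% in Inflachromene 35, 43.7% and 41.4% in Carrier 12, and 48.1% and 45.4% in Carrier 31. Summed Panc1 and carcinoma markers lay between 187 and 224 CPM of all counts in shallow barcodes, against 195 to 247 in deep ones. Fibroblast markers lay between 62.7 and 109, against 90.3 to 118, and immune markers between 36.5 and 52.5, against 42.8 to 51.7. Endothelial, acinar and endocrine markers were at 0 in both. The part of barcode depth and of other cells in the level of these starts was not tested.

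**Figure D5:**
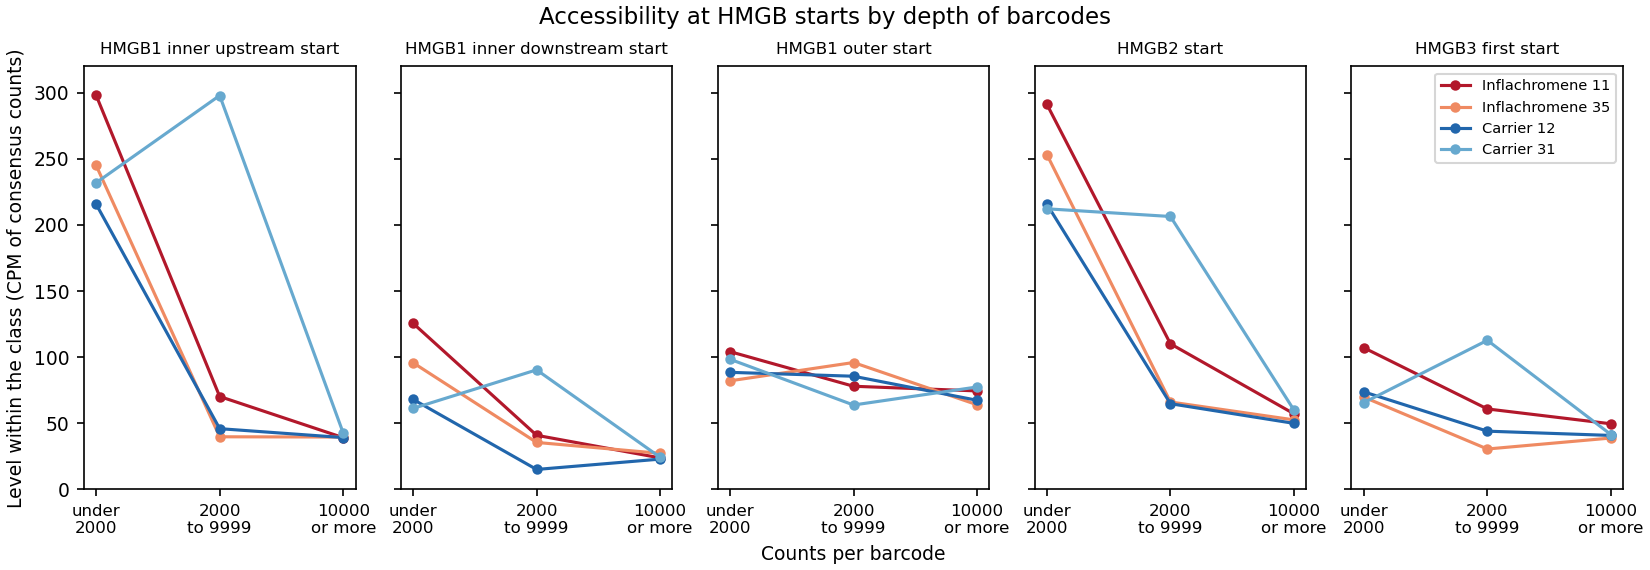
Level in CPM of the consensus counts of each depth class (barcodes under 2000, from 2000 to under 10000, and 10000 or more counts) at the 5 start regions; lines are libraries, Inflachromene in red and orange and Carrier in blue. The HMGB1 inner upstream and HMGB2 starts reach at least 212 CPM under 2000 counts in every library and lie between 39.2 and 42.7 CPM (HMGB1) at 10000 or more, while the HMGB1 outer start has at most 104 CPM in any class.

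For each gene, the 3 other gene-start regions nearest in their centred log2 CPM over the 4 libraries were sought among 11321, by Euclidean distance. With 4 libraries such nearness is common, and it is given as a description. Nearest to the HMGB1 outer start were the shared start of TMEM60 and PHTF2 (distance 0.00882), GRK6 (0.0112) and CXXC1 (0.0125), with 246 regions within 0.05. Nearest to HMGB2 were SLBP, the histone mRNA stem-loop binding protein (0.00564), RNF7 (0.0130) and the shared start of TUBD1 and RPS6KB1 (0.0173), with 69 within 0.05. SLBP had 64.2 and 51.0 CPM with Inflachromene, against 47.7 and 60.3 CPM with Carrier. Nearest to the HMGB3 first start were GALNT7 (0.00915), the shared start of TRPM7 and LOC128092252 (0.0191) and POMK (0.0206), with 29 within 0.05.

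The genes around the HMGB proteins did not pass the test either. Of all gene-start regions, edgeR called 0 of 11324 (0.0%), with 187 (1.65%) at an unadjusted p under 0.05, and 65.5% had a log2 fold change above 0, with a median of 0.04. Among HMG-box relatives, which share the DNA-binding fold, 21 of 24 genes had a start region (HMGB4, TOX3 and LEF1 had none). Of these, 0 were called in either direction and 0 at an unadjusted p under 0.05 in all barcodes. There, 15 lay above 0 and 6 below, with a median log2 fold change of 0.08. The 4 with the smallest p were TOX, a factor of T cell development (0.41, standard error 0.21), TOX2 (0.23), TCF7, a Wnt pathway factor (0.19), and TFAM, which packages mitochondrial DNA (0.16). In deep barcodes TOX had 0.52 (standard error 0.21) at an unadjusted edgeR p of 0.0333. It was not called there, and 4.68% of all consensus regions had an unadjusted edgeR p under 0.05 in deep barcodes. The share among gene starts alone was not taken in deep barcodes, and was 1.65% in all barcodes.

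Among receptors and signalling proteins of extracellular HMGB1, 8 of 19 genes had a start region. Those without one in all libraries were the receptors AGER (RAGE), TLR2, TLR4, TLR9, CXCR4, HAVCR2, SIGLEC10, THBD and TREM1, the TLR4 partner LY96 and the chemokine CXCL12. Of the 8 measured, 0 were called and 0 had an unadjusted p under 0.05. All 8 lay above 0, with a median log2 fold change of 0.11, which was -0.011 without Inflachromene 11. The 4 with the smallest p were TRAF6, a ubiquitin ligase downstream of TLRs whose region RAG1 shares (0.26), CD24, a surface protein that binds HMGB1 (0.27), and the adaptors TIRAP (0.16) and MYD88, whose region ACAA1 shares (0.11). Those log2 fold changes had standard errors of 0.16 to 0.25.

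Among nuclear partners and the machinery of modification and export, 19 of 22 genes had a start region (CASP1, PRDX2 and RB1 had none). Of these, 0 were called and 1 had an unadjusted p under 0.05; 12 lay above 0 and 7 below, with a median of 0.06. That 1 was TREX1, an exonuclease found with HMGB2 in the SET complex, with 21.1 and 33.4 CPM in Inflachromene 11 and 35, against 16.4 and 20.0 CPM in Carrier 12 and 31. Both Inflachromene libraries lay above both Carrier libraries, by little in Inflachromene 11. Groups were apart at 31.5% of all consensus regions. Of the named list members, TOX, TOX2, TCF7, TFAM, TRAF6 and CD24 also had both Inflachromene libraries higher, and TP73 had both lower. For TREX1, edgeR gave a log2 fold change of 0.59 (standard error 0.23), an unadjusted edgeR p of 0.0311 and an adjusted p of 1.00. TP73, of the p53 family, had -0.38 (standard error 0.24), XPO1, the export receptor that carries HMGB1 out of the nucleus, 0.21, and ANP32A, another member of the SET complex, 0.17. Without Inflachromene 11, edgeR called TREX1 (0.88, adjusted p = 0.000481) and TP73 (-0.71, adjusted p = 0.0435), in a fit that called 3180 of all consensus regions with Inflachromene 35 as the lone treated library. Without Inflachromene 35 the log2 fold changes were 0.21 for TREX1 (edgeR adjusted p = 0.889) and -0.12 for TP73 (adjusted p = 0.954).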

How the data were processed

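Per library, the authors deposited its peaks and a matrix holding raw counts by peak and barcode, made with Cell Ranger ATAC 2.1.0 per the file headers. Cell Ranger ARC and GRCh38 are named in the submitters' processing notes; their settings are not known here. Between 82.4% and 84.9% of entries are even, as when a fragment counts once at each end. Deposited barcode sequences and peak positions were used as other, unmeasured, values, and positions are written from 1.

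Peaks of chromosomes 1 to 22 and X were merged at 1 bp of overlap; 50771 of 128195 merged regions had a peak in every library. Counts were summed over barcodes per mouse and tested with edgeR 4.0.16 in R 4.3.3 (TMM, filterByExpr, quasi-likelihood F test, Benjamini-Hochberg over all regions, threshold 0.05). DESeq2 1.42.0 was the other tool. Standard errors come from the F statistic. A list gene was taken at the region within 1 kb of its start, or of either outer end where no start is given; 12784 of 19974 genes (64.0%) had one. Shares used scipy 1.17.1. No doublet caller was run and no barcode was removed for high counts, so a deep barcode may hold more than 1 nucleus. The model fit was tested on simulated data.

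The rule for names allowed the 3 genes, any region and the protein-coding genes of their windows (regions away from starts are mostly given as counts and ranges), the 3 nearest starts by likeness, and up to 4 members of each of 3 lists by smallest unadjusted p. The members and lists were chosen with earlier results of these data known.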

Additional observations from a re-analysis of the deposited data

How the results depend on the processing

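No paired analysis was possible because the mouse numbers of the groups do not recur between them. None of the alternatives called any of the 14 HMGB regions, in all or in deep barcodes (0 in every leave-one-out fit too). The signs of the fold changes were less steady, and the cause was not tested. In all barcodes, removal of all shared barcodes (chosen after seeing the data) gave a log2 fold change of -0.0046 at the HMGB1 inner downstream start, -0.18 at HMGB2, -0.045 at the HMGB3 first start and -0.36 at the inner upstream start, where the value with them was -0.01. That removal also raised the part of the Carrier counts held by barcodes under 10000 counts. In deep barcodes without shared ones the values were 0.059, -0.041, 0.065 and -0.012 in the same order. The outer start had 0.0032 with DESeq2 size factors, 0.0032 with DESeq2, and 0.11 when barcodes with a count were tested. In deep barcodes the outer start had 0.10 by barcodes with a count, and HMGB2 had -0.038 with the offset of 10 Mb windows, -0.041 without shared barcodes and -0.010 in barcodes of 20000 or more. Leaving out 1 library gave ranges of -0.17 to 0.17 at the inner upstream start, 0.12 to 0.36 at the inner downstream start, -0.14 to 0.10 at the outer start, -0.085 to 0.27 at HMGB2 and -0.12 to 0.34 at the HMGB3 first start. In deep barcodes the ranges were -0.094 to 0.069, 0.061 to 0.23, -0.16 to 0.10, -0.11 to 0.20 and -0.062 to 0.32 in the same order. Over all consensus regions edgeR called 3180 without Inflachromene 11, 299 without Inflachromene 35, 5 without Carrier 31 and 0 without Carrier 12; a lone library is assumed to vary like the other group. The number of list members called was 0 to 1 for HMG-box relatives and 0 to 2 for nuclear partners, the high values without Inflachromene 11, when CIC (log2 fold change -0.76, edgeR adjusted p = 0.0466) was called beside TREX1 and TP73; CIC is named here after its value was seen. MYD88 ranged from -0.0023 to 0.23 and TIRAP from -0.019 to 0.31. The median log2 fold change of each list also fell below 0 in some leave-one-out fits. It ranged from -0.041 to 0.20 for HMG-box relatives, -0.011 to 0.24 for receptors and signalling, and -0.040 to 0.16 for nuclear partners. For the shares, the difference at the inner downstream start was -4.13 percentage points unthinned, and that at HMGB2 was 0.40 with halved counts (chosen after seeing the data). Leaving out 1 library moved the differences from -7.97 to 0.379 at the inner upstream start, 0.208 to 1.97 at the inner downstream start, -9.27 to 3.28 at the outer start, -4.98 to 4.37 at HMGB2 and -3.65 to 3.02 at the HMGB3 first start. The 26 merged regions of the windows without a peak in every library, the HMGB3 second start among them, have no count in some libraries and could not be tested.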

Other observations

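HMGB1 and HMGB3 have many processed copies in the genome. The reference table lists 83 pseudogenes of the 3 genes, 50 of HMGB1, 1 of HMGB2 and 32 of HMGB3. Of these, 6 overlapped a peak in any library, and 1 did so in all 4: HMGB3P1 on chromosome 20 (34833575 to 34834462). The others with a peak were HMGB1P25 and HMGB1P7 in 2 libraries each, and HMGB1P21, HMGB1P42 and HMGB3P18 in 1 each.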
